A study of Drosophila melanogaster with 2 samples.

Results

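The nuclear genes of oxidative phosphorylation (OXPHOS) were examined for binding of the fly protein CG32532. The members are the protein-coding genes on the nuclear chromosome arms whose symbols start with ND-, Sdh, UQCR, COX or ATPsyn. They number 88 of 13968 protein-coding genes. Of these, 40 belong to complex I, 8 to complex II, 9 to complex III, 16 to complex IV and 15 to ATP synthase. Among them are 24 paralogs, marked by a final L or an L with a number, and 64 other genes. ND-MNLL was counted among the 64, since its letters are the protein's own name. Binding had been mapped by chromatin immunoprecipitation and sequencing (ChIP-seq) with an antibody against green fluorescent protein (GFP). The material was whole Drosophila melanogaster embryos of 8 to 24 h that carried a CG32532-eGFP transgene. There was 1 group of 2 biological replicates, so no comparison between conditions could be made. The driver of the transgene is not stated, and whole embryos mix all cell types, so no binding can be placed in one of them.

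OXPHOS makes most of the ATP of an animal cell in the inner mitochondrial membrane. Complexes I and II pass electrons from NADH and succinate to ubiquinone, complex III passes them to cytochrome c, and complex IV passes them to oxygen. The proton gradient built by complexes I, III and IV drives ATP synthase. Most subunits are encoded in the nucleus. In Drosophila many of them have a duplicate copy, here named with L, and such duplicates are known for expression in the testis. CG32532 is predicted to hold a homeodomain, a DNA-binding fold that often recognises TAAT-type sequences.

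The DNA at the summits of 6 promoter peaks of complex I genes is printed here, and the peaks are described in the following paragraphs. Whether the printed bases hold the bound site is not known. These peaks were chosen because no annotated exon covers the bases printed. Each line gives 81 bases centred on the summit, the point of highest signal, in the direction of transcription of the member (assembly dm6, positions counted from 1). No capitals occur, because none of the motifs searched lay within these bases. The first summit is the strongest and the last the weakest of all member peaks.
ND-ASHI (chrX:6679324-6679404, minus strand): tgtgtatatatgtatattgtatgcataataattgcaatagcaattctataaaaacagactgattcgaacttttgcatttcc
ND-51 (chr2L:6062807-6062887, minus strand): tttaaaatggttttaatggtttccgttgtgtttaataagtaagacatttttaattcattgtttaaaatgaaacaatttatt
ND-SGDH (chr3L:12138661-12138741, minus strand): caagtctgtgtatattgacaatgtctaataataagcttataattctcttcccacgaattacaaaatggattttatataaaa
ND-B17 (chr2L:15751125-15751205, minus strand): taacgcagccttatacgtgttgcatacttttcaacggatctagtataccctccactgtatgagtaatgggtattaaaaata
ND-23 (chr3R:15837194-15837274, minus strand): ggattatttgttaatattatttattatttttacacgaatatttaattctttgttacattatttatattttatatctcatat
ND-MNLL (chrX:7893839-7893919, minus strand): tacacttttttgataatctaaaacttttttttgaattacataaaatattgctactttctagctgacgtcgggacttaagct

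These stretches were rich in A and T. Their GC content was 13.6% at ND-23, 19.8% at ND-51, 25.9% at ND-SGDH, 27.2% at ND-ASHI, 28.4% at ND-MNLL and 37.0% at ND-B17. Member promoter windows of this length that overlap an exon ran from 19.8% at ND-24 to 46.9% at ND-B22. The part of the choice by exons in the low values was not tested. Over 200 bp around the summit, the median GC content was 34.0% for the 18 peaks nearest to a member and 37.0% for all 5325 peaks. For summits no more than 500 bp from a transcription start site (TSS), the medians were 36.5% and 37.5%.

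The peaks used are the 5325 of the authors' conservative set, called the replicated set, which rests on both replicates. Replicate 1 alone gave 3957 peaks and replicate 2 gave 6850, and the wider optimal set held 7718. Every peak in these sets has a deposited score of 830 or more on the scale of the irreproducible discovery rate. Library depth is unknown, because peak lists hold no read counts. Each peak was assigned to the protein-coding gene with the TSS nearest to its summit, and such a gene is called bound here. The deposited peak signal is the authors' own value and has no stated scale. It is therefore given as a multiple of the median replicated peak, which was 67.8 in replicate 1 and 116 in replicate 2.

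A minority of the OXPHOS genes was bound. In the replicated set 17 of 88 members (19.3%, exact 95% binomial interval 11.7 to 29.1%) were nearest to a peak, against 24.7% of all protein-coding genes. Such intervals cover counting error only and treat genes as independent, which neighbours and paralogs need not be. The members had 18 peaks in all, since ND-B14.7 had a pair. Among the peaks of replicate 1 alone the share was 17% of members, against 20.5% of all genes. Among those of replicate 2 it was 22.7%, against 28.7% of all genes, and in the optimal set 25.0%, against 31.5%. In all 4 sets, which come from the same 2 libraries, the share of members lay below that of all genes, and no test of this difference was made. The stretch of DNA nearest to a gene's TSSs, where a summit counts for it, had a median of 2490 bp for members. For all protein-coding genes it was 4250 bp, and the part of this in the lower share was not tested. The L paralogs stood at 2 of 24 (8.33%). Of the 64 other members 15 (23.4%) were bound, near the share of all genes.

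The answer at promoters depended on how a summit between neighbouring genes was counted. With the nearest gene alone, 13 members had a summit within 500 bp of their TSS (14.8%), against 18.0% of all protein-coding genes. When every gene with a TSS within 500 bp of a summit was counted, 22 members had one (25.0%), against 24.3% of all genes. All 22 were among the 64 members other than L paralogs (34.4%). The share of these 64 was 29.7% with the peaks of replicate 1 alone, against 20.1% of all genes, and 35.9% with those of replicate 2, against 27.4%. None of the 24 L paralogs had such a summit in any of the 4 sets, where 3 counts would stand for 12.5%.

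**Figure D1:**
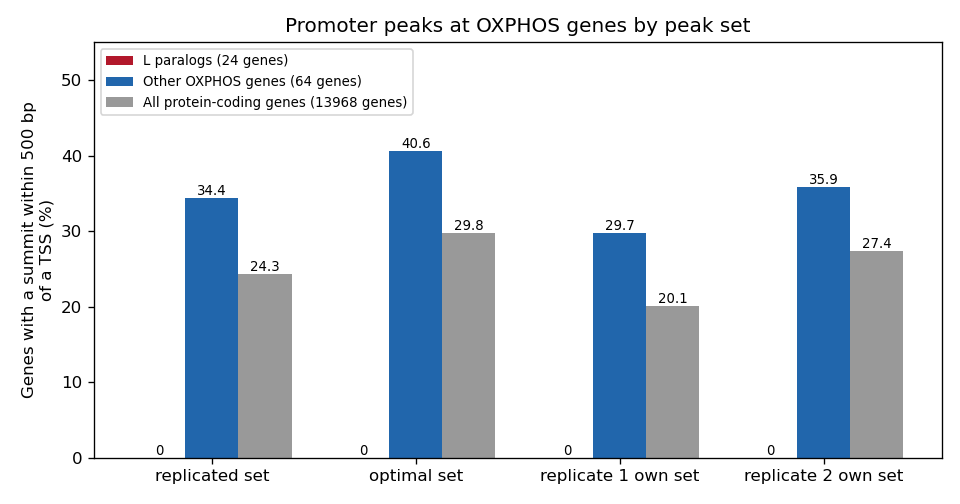
Percent of genes with a summit within 500 bp of a TSS (vertical axis) in 4 peak sets (horizontal axis), for the 24 L paralogs (red, 0 in every set), the 64 other OXPHOS genes (blue) and all 13968 protein-coding genes (grey). The blue bars run from 29.7 to 40.6% and the grey bars from 20.1 to 29.8%.

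Complex I, the NADH dehydrogenase and the largest of the complexes, had most of the bound members. Of its 40 genes 10 were bound (25.0%, exact 95% binomial interval 12.7 to 41.2%), against 24.7% of all protein-coding genes, and 8 of these had the summit within 500 bp of the TSS. The strongest member peak of all was at ND-ASHI, a gene for an accessory subunit. It lay at chrX:6679220-6679525 with the summit 246 bp upstream of the TSS, in an intron of the divergent gene Fum1, which encodes fumarase of the citric acid cycle. Its signal was 371 in replicate 1 and 855 in replicate 2, or 5.46 and 7.35 times the median peak, a mean of 6.41 ± 1.3 (SD, n = 2). It ranked 105th of 5325 in the pooled signal. The Fum1 TSS nearest to the summit was 276 bp from it, so the peak stood nearly midway between this start and that of ND-ASHI. Both genes also have other starts. Those that face each other most closely are 164 bp apart and lie more than 500 bp from the summit.

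Within complex I the next peaks by signal were those of ND-24 and ND-51. ND-24, which encodes an iron-sulfur subunit, had a summit 101 bp inside the gene (chrX:17632073-17632312), in an intron. Its signals were 165 in replicate 1 and 278 in replicate 2, 2.41 ± 0.037 times the median. ND-51, the gene of the subunit that binds NADH and flavin, had an intergenic summit 90 bp upstream of the TSS (chr2L:6062768-6062956), with signals of 143 in replicate 1 and 223 in replicate 2, 2.01 ± 0.14 times the median. Both therefore lay at about the same multiple of the median in both libraries.

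The other complex I promoter peaks were near or below the median peak. ND-SGDH, an accessory subunit gene, had a summit 117 bp upstream (chr3L:12138521-12138880), with signals of 96.8 in replicate 1 and 139 in replicate 2, 1.31 ± 0.17 times the median. It was the one member peak that neither replicate's own set held. ND-B22, whose summit lay at a TSS, stood at 0.991 ± 0.55 times the median, and ND-B17 at 0.977 ± 0.27. ND-23, a core iron-sulfur subunit gene, reached 0.748 ± 0.26 times and ND-MNLL 0.674 ± 0.054 times. At ND-MNLL the summit was 81 bp from a TSS that CG45089 shares, and the tie was given to ND-MNLL. ND-B14.7 had 2 intergenic peaks, 2624 and 9002 bp downstream of its TSS, at 0.980 ± 0.11 and 0.860 ± 0.25 times the median. The remaining bound gene of complex I was the paralog ND-24L, described with its kind.

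Complex II, succinate dehydrogenase, had no bound gene among its 8 members in the replicated set (exact 95% binomial interval 0 to 36.9%), against 24.7% of all genes. SdhC, which encodes a membrane anchor, lay 385 bp from a replicated summit whose nearest gene was Tctp, 13 bp from it. That peak (chr3R:11210054-11210413) reached 77.0 in replicate 1 and 84.9 in replicate 2, 0.932 ± 0.29 times the median. SdhD, the other anchor gene, was bound in the optimal set and in that of replicate 1 but not in that of replicate 2. The catalytic subunit genes SdhA and SdhB had peaks within 500 bp of the TSS only in the ranked lists, which hold candidate peaks without a threshold. At SdhA these were 0.157 and 0.168 times the median in replicates 1 and 2, and at SdhB 0.437 and 0.286 times. SdhA lay 897 bp from the nearest replicated summit. Sdhaf3, an assembly factor gene, had ranked peaks of 0.475 and 0.310 times.

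Complex III, the cytochrome bc1 complex, had 2 bound genes of 9 (22.2%, exact 95% binomial interval 2.81 to 60%), against 24.7% of all genes. UQCR-14 had a summit 22 bp upstream of its TSS (chrX:16286086-16286445), inside a noncoding or untranslated exon of CG32576, with signals of 68.7 in replicate 1 and 74.1 in replicate 2, 0.824 ± 0.27 times the median. The other was the paralog UQCR-14L. This complex depended most on the library: 1 of its genes was bound by the peaks of replicate 1 alone and 5 by those of replicate 2, where UQCR-C2, which encodes a core protein, UQCR-Q and UQCR-6.4L were added. At the TSS of UQCR-C2 the ranked peaks were at 0.483 times the median in replicate 1 and 0.550 times in replicate 2. UQCR-C1, the partner core protein gene, had none listed in replicate 1 and one of 0.0488 times in replicate 2.

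Complex IV, cytochrome c oxidase, had 3 bound genes of 16 (18.8%, exact 95% binomial interval 4.05 to 45.6%), against 24.7% of all protein-coding genes. When neighbours were counted, 6 of the 16 had a summit within 500 bp of a TSS, against 24.3% of all genes. All 6 were among its 8 genes other than L paralogs. COX5A had the strongest promoter peak (chr3R:11819407-11819632, summit 61 bp upstream of one TSS and in an intron of a longer transcript). Its signals were 154 in replicate 1 and 231 in replicate 2, 2.13 ± 0.19 times the median. COX7A had a summit exactly at a TSS (chr3R:8340863-8341222), with signals of 70.1 in replicate 1 and 54.0 in replicate 2, 0.749 ± 0.40 times. COX7A was one of 3 bound members missing from replicate 2's own set.

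COX7C had the second strongest member peak, away from its promoter. The summit lay 1973 bp upstream of the COX7C TSS in an intron of oys, with signals of 192 in replicate 1 and 373 in replicate 2, 3.02 ± 0.27 times the median. A second summit 260 bp inside COX7C was 6 bp from the TSS of oys and was assigned to oys, at 0.720 ± 0.35 times. COX6B, COX5B and COX7B each shared a peak with a neighbour whose TSS was nearer. The COX6B summit lay 59 bp from its TSS and 37 bp from that of CG33932, at 1.39 ± 0.63 times, and CG18809 shares that COX6B start. The COX5B summit lay 277 bp from its TSS and 21 bp from that of IFT52, at 1.37 ± 0.87 times, and the COX7B summit 172 bp from its TSS and 88 bp from that of Sec3, at 1.12 ± 0.15 times. COX4 had no replicated summit within 17194 bp, and COX8 was bound in replicate 2's own set and in the optimal set, with no ranked peak at its TSS in replicate 1.

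ATP synthase had 2 bound genes of 15 (13.3%, exact 95% binomial interval 1.66 to 40.5%), against 24.7% of all genes. ATPsynE, the gene of a small membrane subunit, had a summit 60 bp inside the gene (chr3R:14326893-14327120), with signals of 126 in replicate 1 and 193 in replicate 2, 1.76 ± 0.14 times the median. ATPsyngamma, the gene of the central rotor shaft, had a summit 65 bp upstream of one TSS, inside a first exon of a longer transcript, with signals of 41.0 in replicate 1 and 92.1 in replicate 2, 0.699 ± 0.13 times. The ATPsyngamma peak was missing from the set of replicate 1 alone. Summits at ATPsynCF6 and ATPsynF were nearer to Sec13 and CG3548, at 1.44 ± 0.24 and 0.769 ± 0.42 times the median. ATPsynC, the gene of the proton-carrying ring, had the highest TSS signal among members with no replicated summit within 500 bp, with ranked peaks of 0.922 and 0.923 times the median in replicates 1 and 2. ATPsynbeta, the gene of the catalytic subunit, is on chromosome 4, where 3.75% of protein-coding genes were bound. It had none listed in replicate 1 and a peak of 0.281 times in replicate 2.

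**Figure D2:**
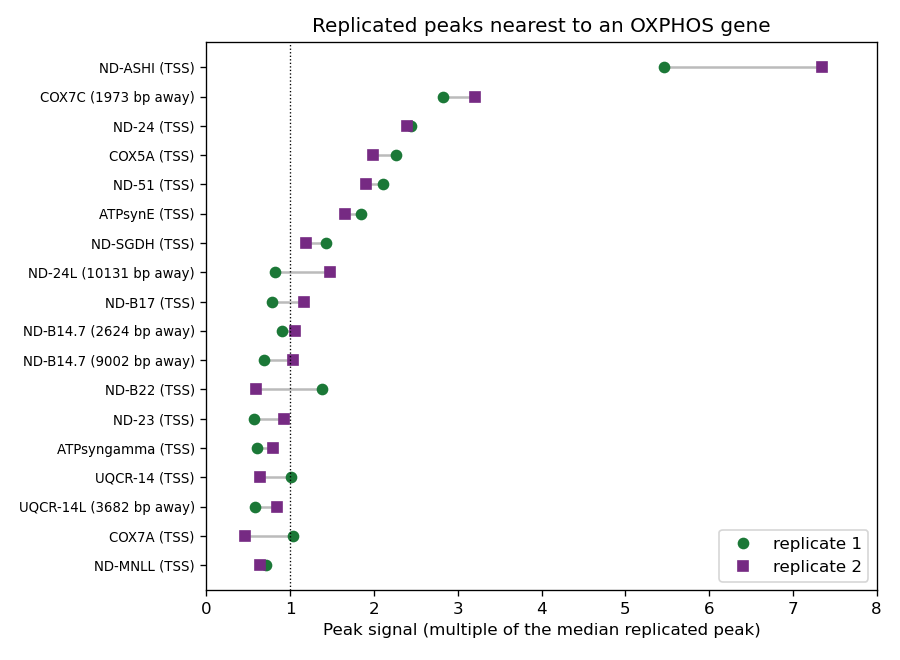
Signal of the 18 replicated peaks nearest to an OXPHOS gene (horizontal axis, multiple of the median replicated peak, dotted line at 1) in replicate 1 (circles) and replicate 2 (squares), from strongest at the top by pooled signal. ND-ASHI stands apart at 5.46 and 7.35, and the next is COX7C at 2.83 and 3.21.

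Over the 17 bound members the median signal of the strongest peak was 1.03 times the median peak in replicate 1 and 1.17 times in replicate 2, 1.10 ± 0.097 (SD, n = 2). Over all 3451 bound protein-coding genes it was 1.19 ± 0.0026. Where the strongest peak of a gene had its summit within 500 bp of the TSS, the medians were 1.28 ± 0.15 over 13 members. They were 1.19 ± 0.064 over all 2203 genes of that kind, and neither difference was tested. Of the 18 member peaks 10 ranked above the middle of the replicated set. Both replicates' own sets held 11 of the 18, replicate 2 alone held 5, replicate 1 alone held 1 and neither held 1. As a multiple of the median, 9 of the 18 stood higher in replicate 1 and 9 in replicate 2. The same 11 genes were bound in the replicated set and in both replicates' own sets, and 26 were bound in at least 1 of the 4 sets.

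Of the 13 summits within 500 bp of their nearest member TSS, 9 were upstream (69.2%), 2 at the TSS and 2 downstream, with a median offset of -65 bp. Of all 2845 such summits 78.7% were upstream, with a median offset of -86 bp, and the difference was not tested. The member offsets ran from -246 bp at ND-ASHI to 101 bp at ND-24.

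Promoters shared with a neighbour were common among the members with a summit near a TSS. A gene was called head-to-head when a gene on the opposite strand started within 500 bp upstream of one of its TSSs. This held for 39 of 88 members (44.3%), against 27.3% of all protein-coding genes. Of the 22 members with a summit within 500 bp of a TSS 18 (81.8%) were head-to-head, against 50.9% of all genes with such a summit. This count admits both genes of a pair by construction, and 9 of the 22 entered only through a summit nearest to another gene. With the nearest gene alone, 10 of 13 members (76.9%) were head-to-head, against 37.9% of all genes with a nearest summit within 500 bp. Head-to-head members had a summit in 18 of 39 cases (46.2%), against 45.3% of all head-to-head genes. Other members had one in 4 of 49 cases (8.16%), against 16.4% of all other genes, and without the L paralogs in 4 of 28 (14.3%). No test of these differences was made.

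Some pairs are named here after their values were seen. ND-ASHI faced Fum1. ND-42, an accessory complex I gene, faced Cchl, which encodes the enzyme that attaches haem to cytochrome c. The peak between ND-42 and Cchl (chr3R:22027392-22027751) lay 137 bp from ND-42 and 92 bp from Cchl, at 1.31 ± 0.067 times the median, and ND-42 was the nearest gene in the separate sets of both replicates. The strongest of the 9 summits near a member but nearer to another gene was between ND-MWFE and TppII, at 3.43 ± 0.51 times the median, with signals of 257 in replicate 1 and 357 in replicate 2. Head-to-head members also occurred without a peak, among them ND-B16.6, which faces the citrate synthase gene kdn at 228 bp, and ATPsynD, which faces mRpL55 at 95 bp. Which gene of a pair a shared peak serves cannot be told apart.

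**Figure D3:**
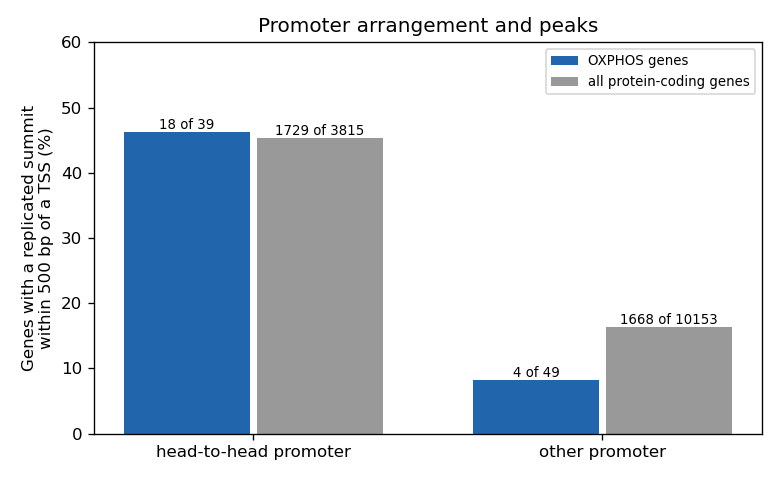
Percent of genes with a replicated summit within 500 bp of a TSS (vertical axis) for head-to-head and other promoters, with OXPHOS genes in blue and all protein-coding genes in grey. The counts above the bars are 18 of 39 and 1729 of 3815 for head-to-head promoters, and 4 of 49 and 1668 of 10153 for others.

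Of the 24 L paralogs 2 were bound, and neither peak was at a promoter. The ND-24L peak (chr3L:17310630-17310720) was intergenic, 10131 bp downstream of the TSS and outside this gene of 843 bp. Its signals were 55.8 in replicate 1 and 172 in replicate 2, 1.15 ± 0.46 times the median. The UQCR-14L peak (chr3R:28297550-28297909) was intergenic, 3682 bp downstream of the TSS, with signals of 39.7 in replicate 1 and 97.7 in replicate 2, 0.713 ± 0.18 times. Both calls ended where genes of any biotype competed for a peak. The paralogs had a larger stretch nearest to their TSSs, with a median of 4824 bp against 2253 bp for the other members.

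The ranked lists gave a value for every promoter, below the threshold of the sets as well. A gene with no ranked peak within 500 bp of a TSS was set to 0 in that replicate, which says only that no peak is listed. The median over the L paralogs was 0.191 times the median peak in replicate 1 and 0 in replicate 2. Over the other members it was 0.442 in replicate 1 and 0.338 in replicate 2, and over all protein-coding genes 0.324 and 0.227. The highest paralog value was 0.610 at ND-B14.5AL in replicate 1 and 0.280 at ATPsynepsilonL in replicate 2. In both libraries 57 of 88 members had a ranked peak there (64.8%), against 62.2% of all genes, and in the L paralogs 9 of 24. In replicate 1 it was 65 members (73.9%), against 75.9% of all genes, and in replicate 2 it was 69 (78.4%), against 70.6%. A ranked peak at or above the median replicated peak in both libraries stood at 10 members (11.4%), against 11.8% of all genes. All L paralogs stayed below the median replicated peak in both libraries.

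For 20 L paralogs the parent, named by the same symbol without L, is also a member, which gave 20 pairs with 18 parents. The paralog was lower than its parent in both replicates in 13 pairs and higher in both in 0. The remaining 7 were mixed or tied, some of them at 0. Replicate 1 alone had 5 pairs with the paralog higher and replicate 2 had 0. Of the 18 parents 8 had a replicated summit within 500 bp of a TSS, against 34.4% of all members other than L paralogs and 24.3% of all protein-coding genes. ND-24L had 0.370 and no listed peak in replicates 1 and 2, against 2.44 and 2.39 for ND-24. ND-51L1 had 0.180 and no listed peak and ND-51L2 0.347 and 0.0552, against 2.11 and 1.91 for ND-51. ATPsynCF6L had 0.103 and 0.0696, against 1.61 and 1.27 for ATPsynCF6. COX5BL had 0.294 and no listed peak, against 1.98 and 0.752 for COX5B, and ND-20L had 0.201 and 0.0589, against 0.573 and 0.372 for ND-20. At the lower end of the parents, UQCR-6.4L had 0.313 and 0.179, against 0.217 and 0.380 for UQCR-6.4, and ATPsynGL had no listed peak in either, against 0.478 and 0.247 for ATPsynG. The COX7A pair of paralogs, COX7AL and COX7AL2, had 0.449 and 0.263 in replicate 1 and none listed and 0.199 in replicate 2, against 1.03 and 0.464 for COX7A. The pair ND-B14.5AL and ND-B14.5A went both ways, with 0.610 and 0.195 for the paralog, against 0.329 and 0.276 for the parent. No ranked peak was listed in either replicate for 6 L paralogs, namely SdhCL, UQCR-11L, COX4L, COX6CL, COX7CL and ATPsynGL. UQCR-14L had 0.222 and no listed peak, against 1.01 and 0.637 for UQCR-14. Among the remaining pairs, ND-49L, SdhAL and ATPsynbetaL were higher than their parents in replicate 1. ND-49L had 0.174 and no listed peak, against none in either for ND-49. SdhAL had 0.214 and no listed peak, against 0.157 and 0.168 for SdhA. ATPsynbetaL had 0.435 and 0.0598, against no listed peak and 0.281 for ATPsynbeta. SdhBL had 0.147 and 0.103, against 0.437 and 0.286 for SdhB. COX6AL, COX6AL2, COX6CL and ATPsynepsilonL have no parent among the members. The parents were also more often head-to-head, and the part of promoter arrangement in these differences was not tested: 3 of 24 L paralogs were head-to-head, against 10 of 18 parents.

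**Figure D4:**
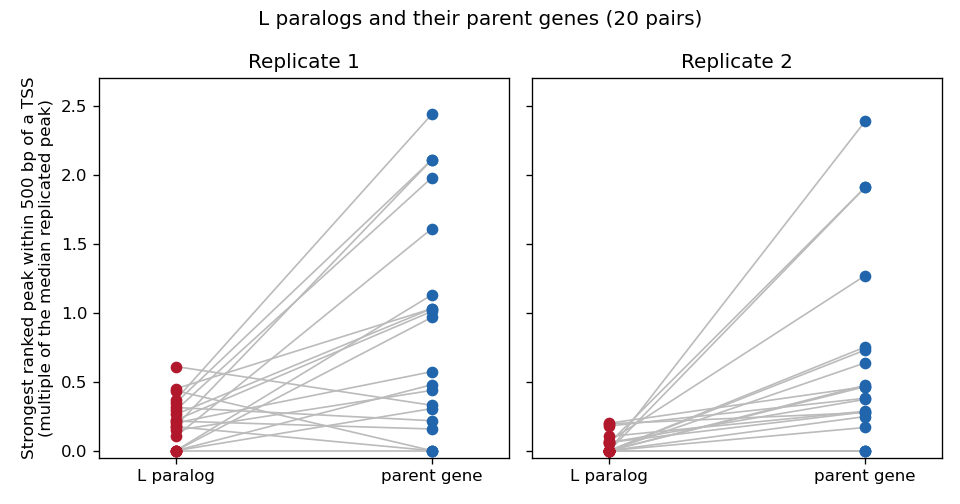
Strongest ranked peak within 500 bp of a TSS (vertical axis, multiple of the median replicated peak) for 20 L paralogs (red) joined to their parent genes (blue), in replicate 1 and replicate 2. The L paralogs in these pairs reach at most 0.610 in replicate 1 and 0.199 in replicate 2, and ND-24 is the highest parent at 2.44 and 2.39.

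Among the 64 other members 42 had no replicated summit within 500 bp of a TSS. Their ranked peaks had a median of 0.254 times the median peak in replicate 1 and 0.264 in replicate 2, and none reached 1 in either. For 5 of them no ranked peak was listed at the TSS in either replicate, namely ND-49, ND-AGGG, ND-B12, ND-MLRQ and UQCR-11. Of these, 3 lie near the centromere of 3L, beyond the last replicated peak of the arm, which ended at 22879064. UQCR-11 (chr3L:25120709-25126171) was 2241813 bp from the nearest replicated summit, ND-AGGG 2097358 bp and ND-MLRQ 460430 bp. ND-49, like ATPsynbeta, is on chromosome 4. How well reads can be placed in these regions was not tested.

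The remaining unbound genes of complex I were ND-13A, ND-13B, ND-15, ND-18, ND-19, ND-20, ND-30, ND-39, ND-75, ND-ACP, ND-B14, ND-B14.5A, ND-B14.5B, ND-B15, ND-B17.2, ND-B18, ND-B8 and ND-PDSW. They encode core and accessory subunits. ND-13A was bound in replicate 2's own set. ND-75, the gene of the largest subunit, had no ranked peak listed at its TSS in replicate 1 and one of 0.288 times the median in replicate 2. In complex III this left UQCR-6.4, and in ATP synthase ATPsynB, ATPsynD, ATPsynG, ATPsynO and ATPsyndelta. ATPsynO was bound in the optimal set alone.

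**Figure D5:**
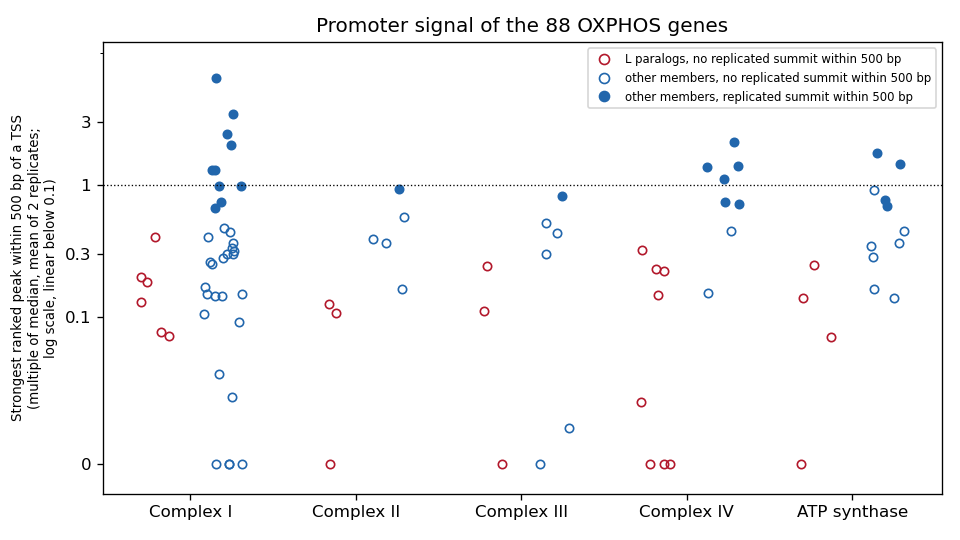
Strongest ranked peak within 500 bp of a TSS (vertical axis, multiple of the median replicated peak, mean of 2 replicates with an unlisted peak as 0, log scale that is linear below 0.1) for each OXPHOS gene by complex. L paralogs are red and drawn to the left of the other members in blue, and filled points have a replicated summit within 500 bp. All red points lie below the dotted line at 1, and filled points run up to 6.41 at ND-ASHI.

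Short motifs were looked up in the member peaks and promoters on both strands. Of the 18 member summits 13 lay within 500 bp of a TSS, against 2845 of all 5325 summits. The motif shares at summits below were not matched for this, so promoter position and membership cannot be told apart in them. TATCGATA is the site of DREF, which regulates proliferation genes. It stood within 200 bp windows around 3 of 18 member summits (16.7%), against 4.51% of all 5325 summits. Among the peaks of replicate 2 alone it stood at 2 of 23 member summits (8.7%), against 3.39% of all. The 3 genes were ATPsynE, COX7A and UQCR-14, and their sites are shown with the motif in capitals, in the direction of the gene's transcription.
ATPsynE (chr3R:14327040-14327067, plus strand): ccaatacaacTATCGATAgccgcctgtc
COX7A (chr3R:8341028-8341055, minus strand): gacatcgatgTATCGATAatacatcgat
UQCR-14 (chrX:16286216-16286243, plus strand): gagtgcgataTATCGATAggtgcagtgt

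The centre of the COX7A site lay 1 bp from a TSS, that of ATPsynE 14 bp and that of UQCR-14 58 bp. In promoters, taken as 250 bp before to 50 bp after the start of the gene record, TATCGATA stood in 9 of 88 members (10.2%), against 9.36% of all protein-coding genes. Of the 22 members with a summit within 500 bp it stood in 4, of the 66 others in 5 and of the 24 L paralogs in 0. Motif 1 of fly promoters, GGTCACACT, stood in 15 of 88 member promoters (17%), against 6.04% of all genes. Here 5 of the 22 members with a summit had it and 9 of the 42 without one other than L paralogs, or 22.7% and 21.4%.

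The homeodomain core TAATTA stood at 4 of 18 member summits (22.2%), against 15.2% of all summits, and in 21 of 88 member promoters (23.9%), against 20.4% of all promoters. The 4 genes were ND-24 and ND-51, at 2.41 and 2.01 times the median peak, and ATPsyngamma and ND-MNLL, the lowest of the member peaks by replicate mean at 0.699 and 0.674 times. COX5A, at 2.13 times, had none. Their sites are shown in the same way, and ND-51 had 2 of them.
ND-24 (chrX:17632193-17632220, plus strand): gaatattaattTAATTAcaagttttatt
ND-51, first site (chr2L:6062742-6062769, minus strand): atctgcactatTAATTAttcggaccatc
ND-51, second site (chr2L:6062791-6062818, minus strand): aaacaatttatTAATTAcagctgattac
ATPsyngamma (chr3R:29748936-29748963, minus strand): cgaaatttccaTAATTAaaataaattat
ND-MNLL (chrX:7893917-7893944, minus strand): ccatgtttgtgTAATTAcctatatttac

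The ND-ASHI window held none of the motifs searched. CAGCTG stood at 5 of 18 member summits (27.8%), against 9.63% of all summits. In windows of 100 bp it stood at 2 of 18 (11.1%), against 4.23% of all. It stood in 23.9% of member promoters, against 17.6% of all promoters. CACGTG stood at 0 of 18 and GAGAG at 1 of 18 member summits, against 2.14% and 25.2% of all summits. Among the peaks of replicate 1 alone GAGAG stood at 2 of 16 member summits (12.5%), against 23.3% of all. In the promoters of the L paralogs GAGAG stood in 10 of 24 cases, against 29.7% of all promoters. The nuclear respiratory gene (NRG) element, described for mitochondrial genes of Drosophila, stood in 1 member promoter, that of ND-42, against 0.473% of all promoters, and at 0 of 18 member summits. The centre of the ND-42 element lay 141 bp upstream of the TSS, beside the replicated summit 137 bp upstream. That summit was assigned to Cchl and so is not among the 18. In the separate set of each replicate, where ND-42 was the nearest gene, the window of its peak held the element. With 18 windows, 1 site moves a share by 5.56 percentage points. A match is no evidence of binding by a named factor.

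Genes of the same pathway under other symbols were counted from lists, with the same 24.7% of all genes as background in the replicated set. For summits within 500 bp of a TSS this background was 18.0%. In the replicates' own sets it was 20.5% for replicate 1 and 28.7% for replicate 2. Of 9 respiratory chain genes under other symbols 4 were bound. Cyt-c-p, the main cytochrome c gene, had a summit 942 bp downstream of its TSS at 3.35 ± 0.23 times the median. For blw, the gene of the alpha subunit of ATP synthase, the summit lay 133 bp upstream of its TSS at 3.22 ± 0.85 times. RFeSP, the Rieske iron-sulfur protein gene of complex III, had its nearest peak 10791 bp upstream at 2.07 ± 0.025 times, and Cyt-c1 one at its promoter at 0.730 ± 0.32 times. The genes ox, Cyt-c-d, cype, levy and sun were not bound.

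The citric acid cycle supplies electrons to the chain. Of 14 genes of the cycle and pyruvate dehydrogenase 9 were bound (64.3%). Of the 14, 7 had the summit within 500 bp of a TSS, against 18.0% of all genes. Idh3g, a subunit gene of isocitrate dehydrogenase, had 4.55 ± 1.0 times the median 83 bp upstream of its TSS, with signals of 259 in replicate 1 and 614 in replicate 2. Pdhb, a pyruvate dehydrogenase gene, stood at 2.42 ± 0.84 times and Idh3b at 1.95 ± 0.85 times, both upstream of the TSS. In the replicates' own sets 7 and 8 of the 14 genes were bound, against 20.5% and 28.7% of all genes. Fum1 was not counted as bound, since its peak was nearer to ND-ASHI.

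The other lists were small. Of 11 genes of mitochondrial DNA and transcription 4 were bound, among them mtSSB, the single-stranded DNA-binding protein gene, at 4.97 ± 2.5 times the median (signals of 218 in replicate 1 and 783 in replicate 2). This list had 1 bound gene by the peaks of replicate 1 alone and 4 by those of replicate 2, against 20.5% and 28.7% of all genes. Of 6 regulators of nuclear mitochondrial genes 4 were bound, namely Dref, ERR, Ets97D and Myc. In the replicates' own sets 1 and 5 were bound, against the same shares of all genes. Only 2 had the summit within 500 bp of a TSS, Dref at 11 bp (1.51 ± 0.19 times) and ERR at 241 bp. The summits of Ets97D and Myc lay 5981 bp and 9275 bp from the TSS. Of 5 assembly factor genes found under their symbols 2 were bound, Coa8 and sicily. Of 8 membrane carrier genes 1 was bound, the adenine nucleotide carrier gene sesB, at 0.842 ± 0.14 times.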

How the data were processed

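Peak lists as deposited use dm6 coordinates, per the labels, and are ranked by the irreproducible discovery rate (IDR). Per the notes deposited with the samples, series-level lists derive from the alignments of both replicates and replicate lists from 1. The aligner and the peak caller were not given in the sources used here, and the age field of the labels was not used. Chromatin was sonicated to 200 to 800 bp, per the labels. The deposited score is the IDR score, and the deposited signal value is the peak strength as the authors' caller gave it. The deposited summit offset, another column, gave positions. A control named in the labels was not used here.

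Genes were those of Ensembl release 115 on the same assembly (13968 protein-coding genes on 7 arms), and every transcript's 5′ end was a TSS. Of 106 summits equally near to TSSs of several genes 1 touched a member. Ties went to the lower coordinate and, where genes shared a TSS, to the gene identifier that sorts first. Replicate signal was that of the strongest ranked peak overlapping it, divided by the replicate's median over the 5279 replicated peaks in both ranked lists. Peaks off the arms (1 optimal, 7 replicate 1) were left out. With 1 group no conditions could be compared, and no test of shares was made. Python 3.11.15, numpy 2.4.6 and pandas 2.3.3 were used, and assignment, overlap and motif search were tested on simulated data. Sequences came from RefSeq's copy of dm6. Members, lists and motifs were chosen with earlier results of these data known. By rule, the 5 strongest bound members per complex, the bound L paralogs and the parents were named with values. Other members given with values, such as the weaker bound genes of complex I, were added after their values were seen. Of 56 list symbols 3 (Ecsit, Coa3, Foxred1) had no match.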

Additional observations from a re-analysis of the deposited data

How the results depend on the processing

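Counts were recomputed with other peak sets, TSS definitions and distances. Of 70 such counts 48 stayed within 1.5 times, and of 7 medians of the bound members' signal 5 stayed within 1 SD. The peaks above the median signal of the replicated set gave 10 bound members, 9 other than L paralogs, 7 within 500 bp of a TSS, 1 L paralog, 1 ATP synthase gene and 0 of complex III. Complex III had 4 bound in the optimal set, 1 with genes of any biotype competing, 1 within 1000 bp and 1 with any TSS within 500 bp. Complex II had 1 in the optimal set and 1 with any TSS within 500 bp, where complex IV had 6 and ATP synthase 4. L paralogs numbered 4 with the gene's 5′ end as TSS and 0 with genes of any biotype, within 1000 bp or with any TSS within 500 bp. The median signal was 1.29 with genes of any biotype competing and 1.28 within 1000 bp. Each replicate's own set, leaving out the other, gave 0 to 1 complex II, 1 to 5 complex III and 1 to 3 L paralog genes bound, and 15 to 20 members. The causes were not tested, except that narrower distances and a higher signal limit admit fewer peaks by construction. Motif shares at the 18 member summits moved beyond 1 SD in 8 of 21 cases, those of the DREF site, the homeodomain core, the E-box CAGCTG, the GAGAG repeat and the NRG element. Other rules for matching replicate peaks changed only the scaling median for the named members, so their 24 recomputed signals say nothing about stability. No paired analysis was possible because there is 1 group. Depth is unknown.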
